A study of Homo sapiens with 20 samples.

Results

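Excitatory transmission in the brain relies on receptors for glutamate and on the proteins that hold them opposite the presynaptic terminal. The levels of 34 genes of this machinery were followed here: 24 receptor subunits or receptors and 10 scaffolds. A gene was represented by the coding record that carries its symbol in the deposited tables and, where several did, by the one with the highest mean over the 7 days. The 34 symbols were found among 20237 coding records, and all 34 had a mean of at least 0.1 FPKM, as did 14107 coding records in all. FPKM (mapped fragments scaled to the length of the transcript and to the number of fragments in the library) is a level per unit length, so that levels can be compared between genes.

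The cells were neural progenitors made from the human embryonic stem cell line H1, which is an established line. On day 0 they were in proliferation medium with the growth factor FGF. FGF was then withdrawn and BDNF, a neurotrophin, was added, and polyadenylated RNA was sequenced from 2 cultures on day 5 and from 3 cultures on each of days 0, 1, 2, 4, 11 and 18. Cells of days 5, 11 and 18 had been moved at day 4 from Matrigel to a Poly-D-lysine/laminin surface, so that a change of surface falls between day 4 and day 5, and all cultures come from the 1 line. The files hold 1 value per record and day, pooled over the cultures of that day. The spread between cultures and the depth are therefore unknown here and no test was run on these values, so that the differences described below have no replicate check of their own.

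Glutamate receptors fall into channels and G-protein-coupled receptors. AMPA receptors carry most of the fast current, NMDA receptors admit calcium when glutamate meets a depolarised membrane, kainate receptors modulate transmission on both sides of the synapse, and metabotropic receptors act through second messengers. Under the membrane, DLG proteins of the membrane-associated guanylate kinase family bind receptor tails, SHANK proteins form the next layer, and HOMER proteins tie SHANK to group I metabotropic receptors and to calcium stores.

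At day 18, 18 of the 34 genes were at least 2-fold higher than at day 0 and 2 were at least 2-fold lower, on the scale of log2(FPKM + 0.1), where 2-fold is a difference of 1. Among the 14107 coding records, 10.6% were at least 2-fold higher and 28.2% at least 2-fold lower. The higher genes were led by the AMPA subunit GRIA2, the scaffold SHANK1 and the kainate subunit GRIK1, with differences of 5.06, 4.76 and 4.43 in log2(FPKM + 0.1). The 2 lower were the scaffold DLG1 and the record kept for GRIN1, which, as described with the NMDA receptors, lies on another gene. The median difference was 1.15 for the 34 genes and -0.52 for all coding records. In bulk RNA, a larger share of cells of one type and more RNA per cell cannot be told apart.

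**Figure D1:**
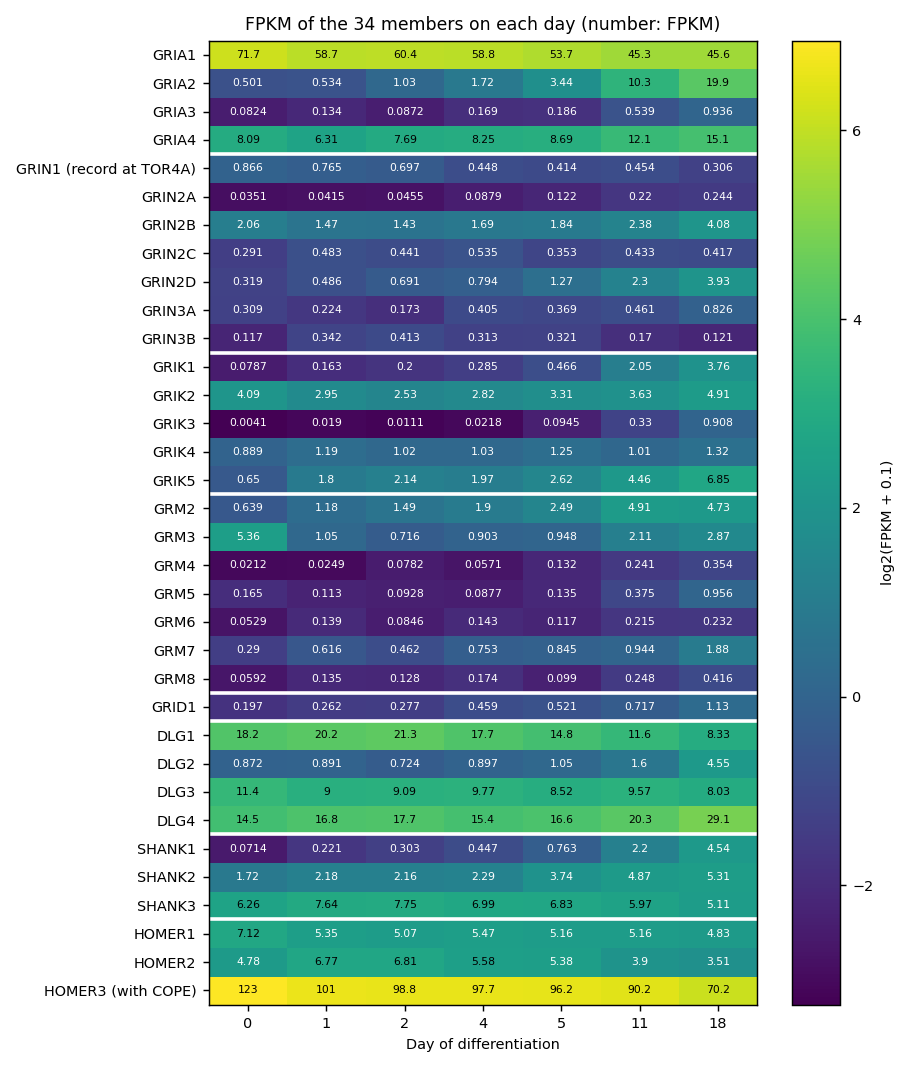
FPKM of the 34 genes (rows, grouped by family with white lines) on the 7 days (columns); the colour gives log2(FPKM + 0.1) and the number in each cell the FPKM, 1 pooled value per day. GRIA1 and the HOMER3 record were the highest on every day, and 22 of the 34 genes had their highest value at day 18.

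Day 18 was the highest of the 7 days for 22 of the 34 genes (64.7%), against 11.7% of all coding records. Day 0 was the highest for 6 genes (GRIA1, the GRIN1 record, GRM3, DLG3, HOMER1 and the HOMER3 record), against 40.8% of coding records. Of the remaining genes, 4 were highest at day 2 (GRIN3B, DLG1, SHANK3 and HOMER2), GRIN2C at day 4 and GRM2 at day 11. Of the 34 genes, 13 were above 1 FPKM at day 0 and 23 at day 18, and the median level of all 34 went from 0.644 to 3.85 FPKM. Neither was worked out for all coding records, so these values describe the 34 genes alone, with the GRIN1 and HOMER3 records among them. For 6 genes (GRIA2, GRIN2A, GRIN2D, GRIK1, GRID1 and SHANK1) each sampled day was higher than the one before, which held for 2.30% of all coding records.

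The totals of the days differ. The FPKM of coding records summed to 358744 at day 0 and 216151 at day 18, and the median difference of the 11793 records with a mean of at least 1 FPKM was -0.60 in log2(FPKM + 0.1). Recentred on that median, 23 of the 34 genes were at least 2-fold higher and 0 at least 2-fold lower, against 19.3% and 12.1% of coding records. The 5 genes added were GRIA4, GRIN2B, GRIN2C, GRIK4 and DLG4, while DLG1 and the GRIN1 record dropped out. Among the 21 genes with a mean of at least 1 FPKM, 8 were higher and 1 lower without recentring, against 7.57% and 29.9% of the coding records at that level. A gene can reach that mean through its late days alone, so this count is no separate check of the rise. GRIK1, for example, had a mean of 1.00 FPKM, with 0.466 at day 5 and 3.76 at day 18. Shares within a family on 1 day, given below, do not change with the scaling of the days.

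Promoter windows are shown for 5 genes of 3 families whose relatives moved apart: GRIA2, DLG2 and GRM2, which were higher at day 18, and DLG1 and GRM3, which were lower. The windows are from RefSeq (GRCh38.p14), run from 250 bases before to 50 bases after an annotated start, and are written 5′ to 3′ with every CG in capitals. The GRIA2 window is chr4:157219870-157220169 (plus strand), that of GRM2 is chr3:51706818-51707117 (plus) and that of GRM3 is chr7:86643659-86643958 (plus). The DLG1 window is chr3:197299272-197299571 (minus strand) and that of DLG2 is chr11:85627295-85627594 (minus). In all 5, the RefSeq start, placed in GRCh37 by exact match of the sequence, lay within 100 bases of the start of the gene's record.
GRIA2: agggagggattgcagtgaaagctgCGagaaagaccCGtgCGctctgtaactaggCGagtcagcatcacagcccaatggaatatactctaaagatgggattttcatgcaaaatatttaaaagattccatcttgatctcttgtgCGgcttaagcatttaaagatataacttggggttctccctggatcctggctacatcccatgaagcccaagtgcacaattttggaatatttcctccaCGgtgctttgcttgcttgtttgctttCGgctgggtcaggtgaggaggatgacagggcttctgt
GRM2: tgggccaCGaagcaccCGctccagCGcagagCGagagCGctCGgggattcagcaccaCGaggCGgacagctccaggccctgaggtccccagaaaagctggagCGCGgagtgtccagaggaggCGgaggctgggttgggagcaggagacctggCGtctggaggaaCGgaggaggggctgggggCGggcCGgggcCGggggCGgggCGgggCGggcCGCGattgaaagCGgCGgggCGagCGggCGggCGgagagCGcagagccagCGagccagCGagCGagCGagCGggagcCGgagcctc
GRM3: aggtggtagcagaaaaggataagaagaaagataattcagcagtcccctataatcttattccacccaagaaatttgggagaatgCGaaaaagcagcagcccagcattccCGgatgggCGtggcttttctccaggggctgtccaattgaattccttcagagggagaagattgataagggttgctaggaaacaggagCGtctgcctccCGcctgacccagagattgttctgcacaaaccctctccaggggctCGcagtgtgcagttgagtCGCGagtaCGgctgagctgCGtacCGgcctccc
DLG1: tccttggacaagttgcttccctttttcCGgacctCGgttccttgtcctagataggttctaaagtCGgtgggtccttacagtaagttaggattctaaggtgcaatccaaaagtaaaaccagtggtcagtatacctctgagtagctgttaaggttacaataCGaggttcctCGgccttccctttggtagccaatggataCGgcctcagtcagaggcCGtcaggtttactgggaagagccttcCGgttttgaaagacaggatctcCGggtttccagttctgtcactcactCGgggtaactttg
DLG2: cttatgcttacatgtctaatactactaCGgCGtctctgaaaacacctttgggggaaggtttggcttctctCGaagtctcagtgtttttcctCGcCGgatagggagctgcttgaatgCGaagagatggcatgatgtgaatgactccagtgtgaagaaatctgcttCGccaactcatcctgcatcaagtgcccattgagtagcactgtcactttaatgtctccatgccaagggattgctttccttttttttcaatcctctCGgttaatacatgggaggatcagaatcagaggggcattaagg
CG content did not follow the direction in these 5 windows. GRIA2 had 7 CG and 46.3% G or C, DLG2 had 8 and 46.0%, and GRM2, which was also higher at day 18, had 34 and 74.7%. The lower genes DLG1 and GRM3 had 10 and 11 CG, with 48.7% and 52.7% G or C. The GRM3 difference, -0.88 in log2(FPKM + 0.1), is under 2-fold. A RefSeq window was matched for 27 of the 34 genes, and the median was 15 CG, against 14 over all 35093 windows of the same length. Of the 27 windows, 17 had their start within 100 bases of the start of the record. Other annotated starts of a gene can differ, such as one of GRIA2 with 44 CG at 476 bases into its record. Those of DLG1 had 4 to 27 CG and those of DLG2 3 to 22, so the comparison of the 5 windows depends on the starts chosen. The 13 matched genes that were at least 2-fold higher at day 18 had between 7 and 37 CG (median 13), and the other 14 had between 7 and 49 (median 21), so that the ranges overlapped.

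The make-up of the AMPA receptor genes changed from mostly GRIA1 to a mix of GRIA1, GRIA2 and GRIA4. In the values that follow, the 7 numbers of a gene are its FPKM in the order of the sampled days, from day 0 to day 18. GRIA1, a pore-forming subunit, was at 71.7, 58.7, 60.4, 58.8, 53.7, 45.3 and 45.6. GRIA2, whose RNA-edited form makes the channel nearly impermeable to calcium, was at 0.501, 0.534, 1.03, 1.72, 3.44, 10.3 and 19.9, a 39.7-fold ratio of the last to the first value. GRIA2 had thus left its starting level by day 2, and GRIA1 was lower at every later day than at day 0. The GRIA1 difference of -0.65 in log2(FPKM + 0.1) was close to that of the median coding record and came to -0.05 after recentring.

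GRIA4, a subunit prominent in early development, was at 8.09, 6.31, 7.69, 8.25, 8.69, 12.1 and 15.1, a difference of 0.89 in log2(FPKM + 0.1). GRIA3, encoded on the X chromosome, was at 0.0824, 0.134, 0.0872, 0.169, 0.186, 0.539 and 0.936, which is 2.51 higher in log2(FPKM + 0.1). It remained the lowest of the 4 on every day. The 4 values summed to 80.4 FPKM before FGF withdrawal, 65.7 a day later and 81.4 on the last day, and such sums, unlike shares, depend on the scaling of the days. GRIA1 made up 89.2% of that sum at day 0 and 55.9% at day 18, GRIA2 0.624% and 24.4%, and GRIA4 10.1% and 18.5%. The ratio of GRIA1 to GRIA2 was 143 on day 0, 15.6 on day 5 and 2.29 on day 18. The GRIA2 record (chr4:158141295-158287224 in hg19) also carries the symbol GRIA4, but 99.4% of its exon bases lie in annotated GRIA2 exons, and GRIA4 was read from its own record on chromosome 11.

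**Figure D2:**
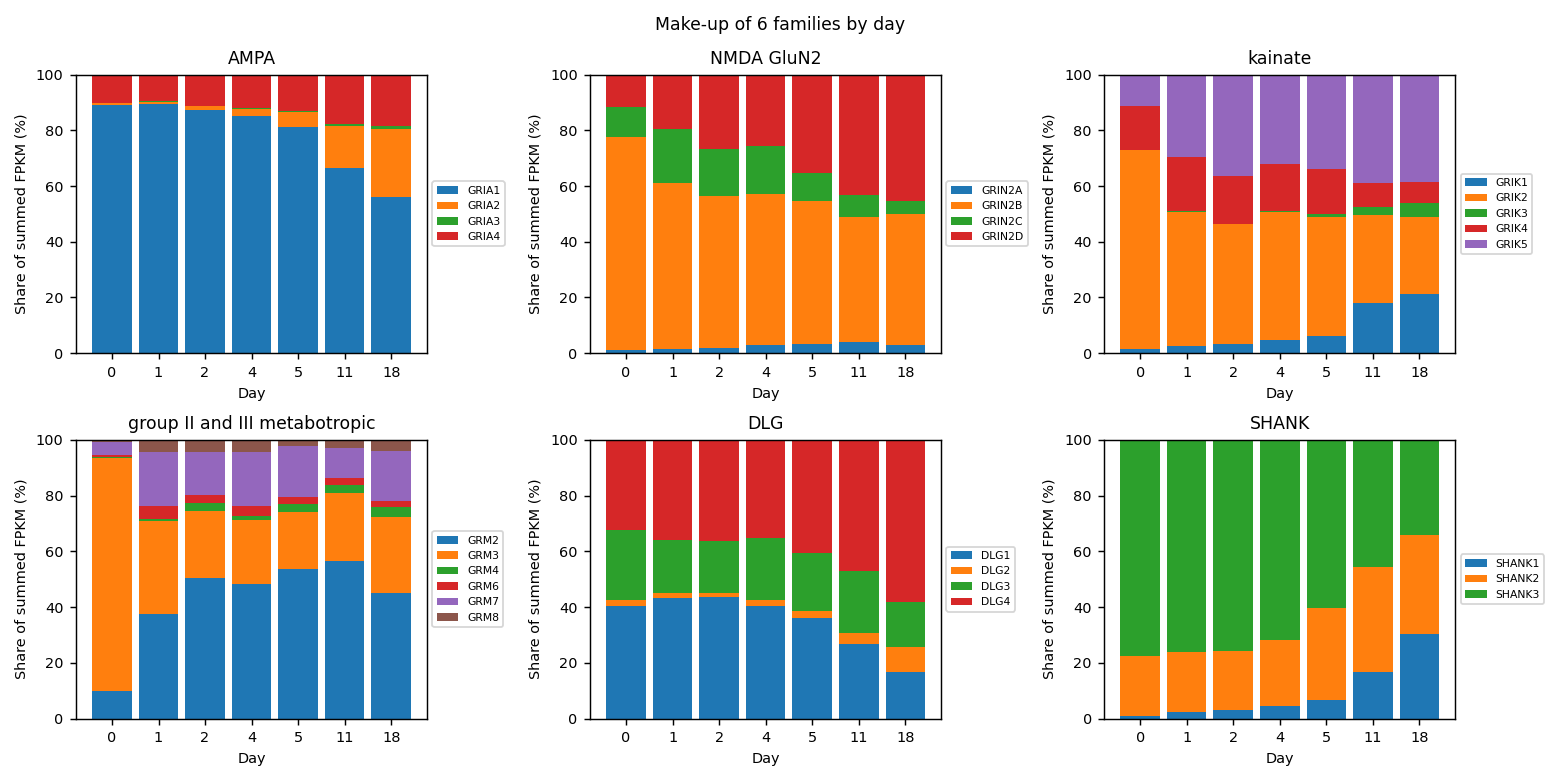
Share of the summed FPKM of 6 families (y axis, percent) held by each gene on each of the 7 days (x axis), 1 pooled value per day. GRIA1 held 89.2% of the AMPA sum at day 0 and 55.9% at day 18, and SHANK3 77.7% and 34.2% of the SHANK sum.

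Of the 7 NMDA receptor genes, 3 were at least 2-fold higher at day 18 (GRIN2A, GRIN2D and GRIN3A) and 1 record was lower, against 10.6% and 28.2% of coding records. The lower record is that kept for GRIN1, the subunit that every NMDA receptor needs. It carries the symbols C9orf167 and GRIN1, spans chr9:140172280-140406529 in hg19, and 99.4% of its exon bases lie in exons of TOR4A, with 0 in exons of GRIN1. Its values were 0.866, 0.765, 0.697, 0.448, 0.414, 0.454 and 0.306, a difference of -1.25 in log2(FPKM + 0.1), and they say nothing of GRIN1. A second record, chr9:140033609-140063207, has all its exon bases in GRIN1 exons and read 0.0151, 0.0872, 0.106, 0.118, 0.162, 0.273 and 0.755, which is 2.89 higher at day 18. With that record, chosen after its values were seen, 19 of the 34 genes were at least 2-fold higher and 1 lower, and GRIN1 was still under 1 FPKM on every day.

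The GluN2 subunits set the kinetics of the receptor. GRIN2B, the form typical of the immature forebrain, was at 2.06, 1.47, 1.43, 1.69, 1.84, 2.38 and 4.08, a difference of 0.95 in log2(FPKM + 0.1) that stays just under 2-fold. GRIN2D, which makes slowly closing channels, was at 0.319, 0.486, 0.691, 0.794, 1.27, 2.30 and 3.93, which is 3.27 higher. GRIN2A, which joins synapses later in brain development, was at 0.0351, 0.0415, 0.0455, 0.0879, 0.122, 0.220 and 0.244. Despite its 6.97-fold ratio, GRIN2A never passed 0.3 FPKM and held at most 4.12% of the GluN2 sum. GRIN2B held 76.2% of that sum at day 0 and 47.0% at day 18, and GRIN2D 11.8% and 45.4%, so that the ratio of GRIN2B to GRIN2D went from 6.47 to 1.04. The ratio of GRIN2B to GRIN2A started at 58.8, reached 10.8 by day 11 and ended at 16.7.

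GRIN2C, best known from cerebellar granule cells, was highest at day 4 with 0.535 FPKM, between 0.291 at day 0 and 0.417 at day 18. GRIN3A, a GluN3 subunit that lowers calcium entry, was at 0.309, 0.224, 0.173, 0.405, 0.369, 0.461 and 0.826. GRIN3B, the other GluN3 subunit, was highest at day 2 with 0.413 FPKM and ended at 0.121, next to its 0.117 of day 0. Up to day 2 GRIN3A was going down and GRIN3B up, and by day 18 GRIN3A was at its highest value and GRIN3B back near its start.

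**Figure D3:**
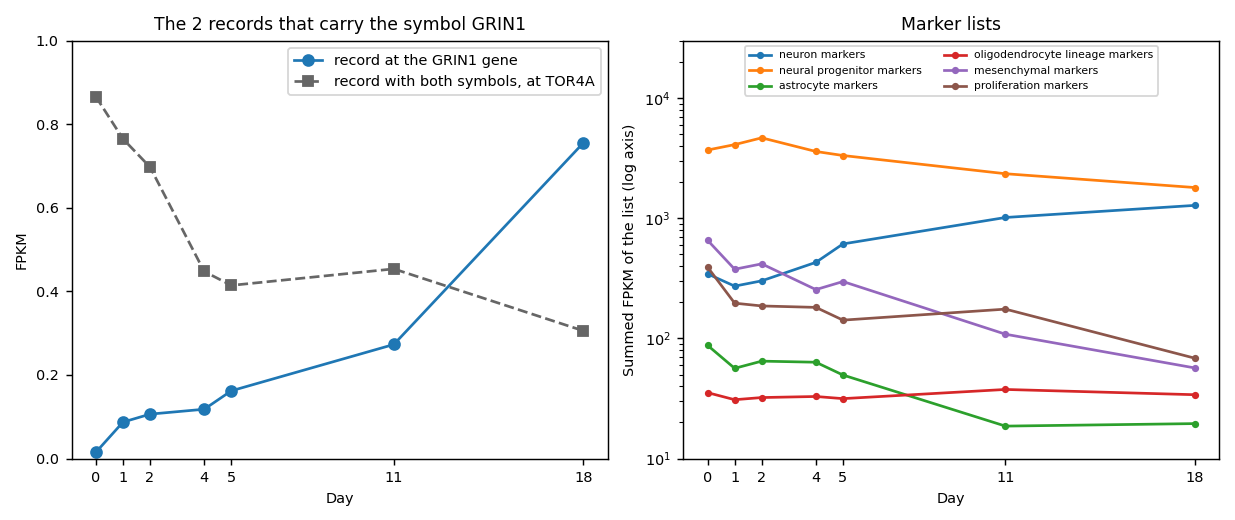
Left, FPKM (y axis) of the 2 records that carry the symbol GRIN1 by day (x axis): the record in GRIN1 exons (circles) went from 0.0151 to 0.755 and the one on TOR4A (squares) from 0.866 to 0.306. Right, summed FPKM (log axis) of the marker lists by day, with neuron markers going from 344 to 1279.5 and proliferation markers from 392 to 68.3.

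All 5 kainate receptor genes were higher at day 18 than at day 0, against 29.1% of coding records. Of the 5, 3 were at least 2-fold higher, against 10.6% of coding records. GRIK1 was at 0.0787, 0.163, 0.200, 0.285, 0.466, 2.05 and 3.76, a 47.7-fold ratio. GRIK3 started near 0, at 0.00411, 0.0190, 0.0111, 0.0218, 0.0945, 0.330 and 0.908, so that its difference of 3.28 in log2(FPKM + 0.1) rests on a first value far below the pseudocount. GRIK1 and GRIK3 form channels on their own, as does GRIK2, and all 5 kainate genes were at their highest at day 18. GRIK2 was at 4.09, 2.95, 2.53, 2.82, 3.31, 3.63 and 4.91, a difference of 0.26.

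GRIK4 and GRIK5 encode the high-affinity subunits, which need one of the other kainate subunits to form a channel. GRIK5 was at 0.650, 1.80, 2.14, 1.97, 2.62, 4.46 and 6.85, which is 3.21 higher in log2(FPKM + 0.1), and it was 1.34 higher already at day 1. GRIK4 stayed between 0.889 and 1.32 (0.889, 1.19, 1.02, 1.03, 1.25, 1.01 and 1.32). The kainate sum went from 5.71 to 17.8 FPKM. GRIK2 held 71.6% of it at day 0 and 27.7% at day 18, GRIK5 11.4% and 38.6%, and GRIK1 1.38% and 21.2%. GRIK5 thus replaced GRIK2 as the most abundant kainate subunit from day 11 on.

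**Figure D4:**
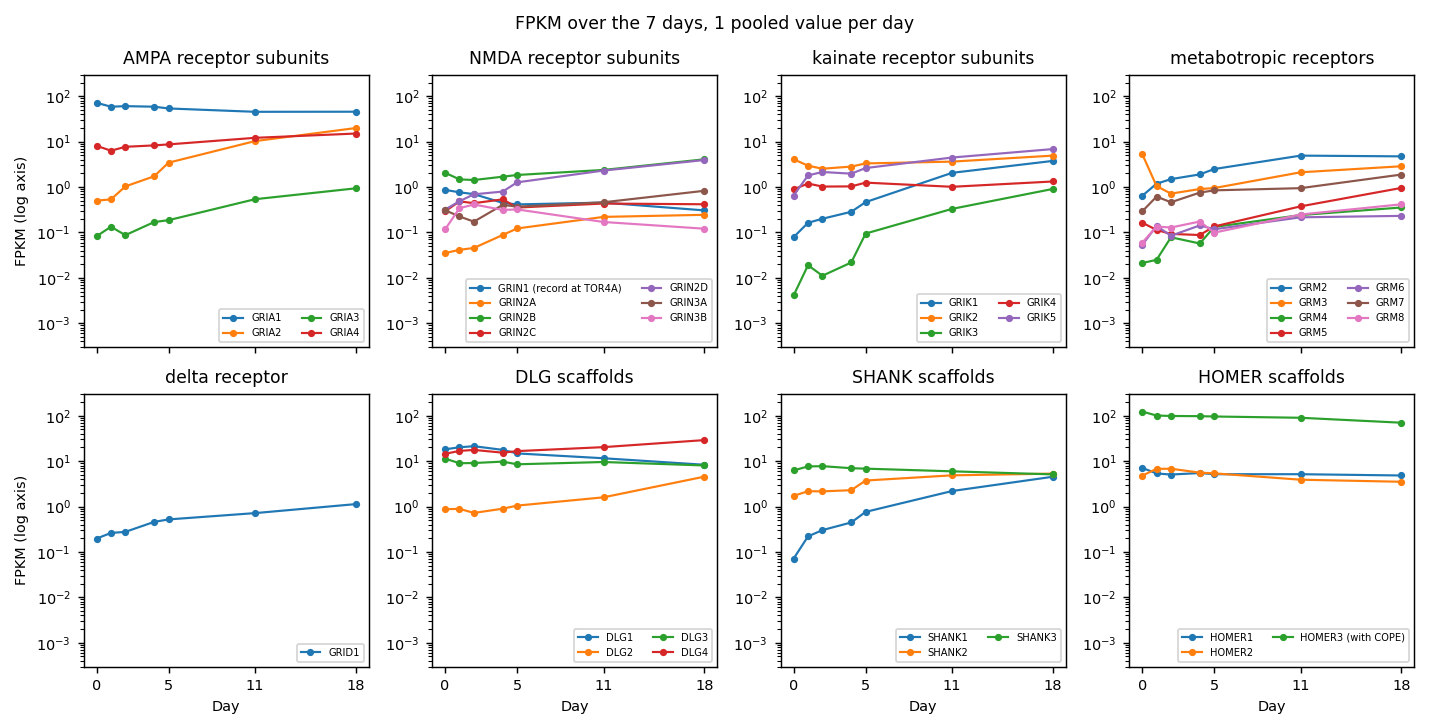
FPKM (log axis) of each gene by day (x axis) in 8 panels, 1 per family, each point being 1 pooled value. GRIA2, GRIK1, GRIK3 and SHANK1 differ by 39.7-fold or more between day 0 and day 18, while GRM3 drops from 5.36 to 1.05 FPKM at day 1.

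Of the 7 metabotropic receptors, 6 were at least 2-fold higher at day 18, against 10.6% of coding records. The exception was GRM3, a group II receptor of neurons and astrocytes that inhibits adenylyl cyclase. With 1 FPKM added in place of 0.1, only GRM2 and GRM7 stayed at least 2-fold higher. No count of all coding records was made on that scale. On that scale GRM4, GRM5, GRM6 and GRM8, which were under 1 FPKM on every day, differed by 0.41, 0.75, 0.23 and 0.42. GRM3 was at 5.36, 1.05, 0.716, 0.903, 0.948, 2.11 and 2.87. Its difference was -2.25 in log2(FPKM + 0.1) from day 0 to day 1, the largest fall of any of the 34 genes in any step, and 1.08 from day 5 to day 11. Day 18 remained 0.88 below day 0 on that scale. The antisense RNA GRM3-AS1 overlaps 19.9% of the exon bases of the GRM3 record, and reads of the 2 strands cannot be told apart in these values.

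GRM2, the other group II receptor and mainly presynaptic, was at 0.639, 1.18, 1.49, 1.90, 2.49, 4.91 and 4.73, which is 2.71 higher in log2(FPKM + 0.1). The course of GRM2 has no drop at day 1, in contrast to GRM3, and by day 1 it was the higher of the pair. GRM2 held 9.95% of the sum of the group II and group III receptors at day 0 and 45.2% at day 18, and GRM3 83.5% and 27.3%. That sum started at 6.42 FPKM, was lowest on day 2 with 2.96 and ended at 10.5.

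Most group III receptors are presynaptic and damp release, while GRM6 is postsynaptic. GRM7, which sits in the presynaptic active zone, was at 0.290, 0.616, 0.462, 0.753, 0.845, 0.944 and 1.88, which is 2.35 higher. The other group III genes, GRM4, GRM6 and GRM8, were all under 0.5 FPKM on every day, so their differences are near the low end of what was measured. GRM4 was at 0.0212, 0.0249, 0.0782, 0.0571, 0.132, 0.241 and 0.354 FPKM. GRM6, the glutamate receptor of retinal ON bipolar cells, was at 0.0529, 0.139, 0.0846, 0.143, 0.117, 0.215 and 0.232. GRM8 was at 0.0592, 0.135, 0.128, 0.174, 0.0990, 0.248 and 0.416. Their differences in log2(FPKM + 0.1) were 1.91 for GRM4, 1.12 for GRM6 and 1.70 for GRM8.

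GRM5, a group I receptor that raises calcium through phospholipase C and binds HOMER proteins, was at 0.165, 0.113, 0.0928, 0.0877, 0.135, 0.375 and 0.956. It was lowest at day 4 and 2.00 higher at day 18 than at day 0 in log2(FPKM + 0.1). The annotated antisense RNA GRM5-AS1 overlaps 51.8% of the exon bases of its record, where reads of the 2 strands cannot be told apart either. GRID1, a delta receptor that binds cerebellins across the synaptic cleft, was at 0.197, 0.262, 0.277, 0.459, 0.521, 0.717 and 1.13, which is 2.05 higher.

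Among the scaffolds, the DLG family changed its leading gene. DLG1, which is also found at epithelial junctions, was at 18.2, 20.2, 21.3, 17.7, 14.8, 11.6 and 8.33, a difference of -1.12 in log2(FPKM + 0.1) that came to -0.52 after recentring. DLG4, the main DLG scaffold of mature excitatory synapses, was at 14.5, 16.8, 17.7, 15.4, 16.6, 20.3 and 29.1. Its last value is 2.00 times its first, and with the pseudocount its difference of 0.998 falls just short of 2-fold. DLG1 was the higher of the pair up to day 4 and DLG4 from day 5 on, and their ratio went from 1.25 to 0.286.

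DLG2, a close relative of DLG4, was at 0.872, 0.891, 0.724, 0.897, 1.05, 1.60 and 4.55. Most of its difference of 2.26 in log2(FPKM + 0.1) came between days 11 and 18, where it was 1.46, the largest of the 34 genes in that step. DLG3, encoded on the X chromosome, was at 11.4, 9.00, 9.09, 9.77, 8.52, 9.57 and 8.03, a difference of -0.50 that became 0.10 after recentring. DLG1 held 40.5% of the DLG sum at day 0 and 16.7% at day 18, DLG4 32.3% and 58.2%, and DLG2 1.94% and 9.11%. The sum itself was 44.9 FPKM at day 0 and 50.0 at day 18.

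In the SHANK family, 2 of 3 genes were at least 2-fold higher at day 18, against 10.6% of coding records. SHANK1 was at 0.0714, 0.221, 0.303, 0.447, 0.763, 2.20 and 4.54, a 63.5-fold ratio. SHANK2 was at 1.72, 2.18, 2.16, 2.29, 3.74, 4.87 and 5.31, with its largest step, 0.68 in log2(FPKM + 0.1), from day 4 to day 5. SHANK3, the gene deleted in Phelan-McDermid syndrome, was at 6.26, 7.64, 7.75, 6.99, 6.83, 5.97 and 5.11, a difference of -0.29 that became 0.31 after recentring. The 3 genes, which were 87.6-fold apart at day 0 in the ratio of SHANK3 to SHANK1, lay between 4.54 and 5.31 FPKM at day 18. SHANK3 went from 77.7% to 34.2% of the SHANK sum and SHANK1 from 0.887% to 30.3%.

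The HOMER genes did not change by 2-fold in any step. HOMER1, whose short form is an activity-regulated transcript, was at 7.12, 5.35, 5.07, 5.47, 5.16, 5.16 and 4.83. HOMER2 was at 4.78, 6.77, 6.81, 5.58, 5.38, 3.90 and 3.51. Their differences from day 0 to day 18 of -0.55 and -0.43 in log2(FPKM + 0.1) became 0.05 and 0.16 after recentring. The HOMER3 record, at 123, 101, 98.8, 97.7, 96.2, 90.2 and 70.2, is merged with COPE, a coat protein gene of every cell. Annotated COPE exons cover 31.1% of its exon bases and HOMER3 exons 68.8%, and the 2 genes cannot be told apart in its values.

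**Figure D5:**
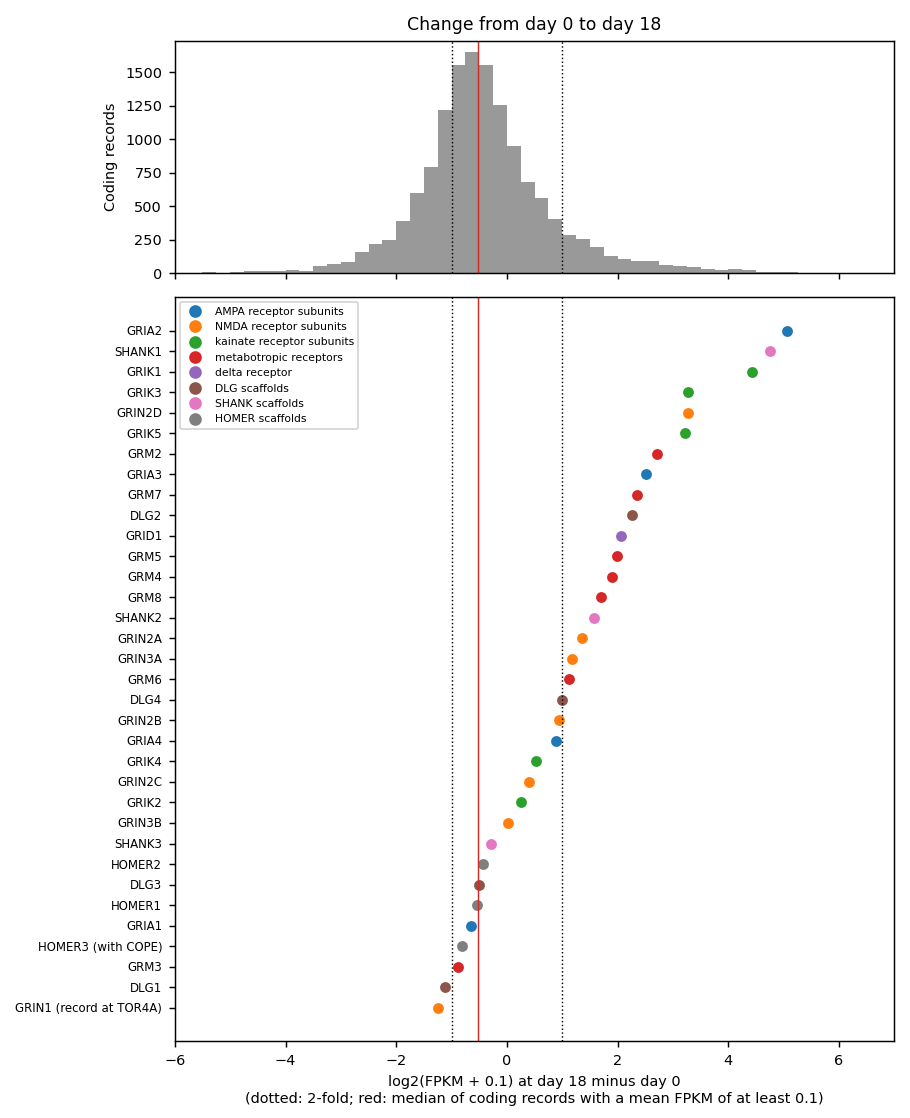
Top, number of coding records (y axis) by difference in log2(FPKM + 0.1) between day 18 and day 0 (x axis, shown from -6 to 7, which leaves out 12 of 14107 records). Bottom, the same difference for each of the 34 genes, coloured by family; dotted lines mark 2-fold and the red line the median of all records, -0.52, above which most of the genes lie.

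By adjacent days, the genes at least 2-fold apart were found in the first step and in the last steps, the latter being the longest intervals. From day 0 to day 1, GRIN3B and GRIK5 were higher and GRM3 lower, 5.88% and 2.94% of the 34 genes against 4.61% and 3.68% of coding records, which is near the background. From day 1 to day 2, 0 genes were at least 2-fold apart in either direction (0.269% of coding records higher, 0.298% lower). The count was again 0 from day 2 to day 4 (0.184% and 1.11%) and from day 4 to day 5, the step with the replating (0.432% and 0.106%).

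From day 5 to day 11, 7 genes were at least 2-fold higher (GRIA2, GRIA3, GRIK1, GRIK3, GRM3, GRM5 and SHANK1) and 0 lower, against 2.56% and 4.57% of coding records. GRIK1 had the largest difference of that step, 1.93 in log2(FPKM + 0.1), followed by GRIA2 with 1.55. From day 11 to day 18, 4 genes were at least 2-fold higher (GRIK3, GRM5, DLG2 and SHANK1) and 0 lower, against 1.66% and 3.54% of coding records. Both steps use the day 11 value, so their differences are not independent. The median difference of the 34 genes was 0.38 and 0.42 in these steps, and that of all coding records -0.15 and -0.25.

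Genes whose products work with these receptors were read from lists of 13 auxiliary subunits and 19 partners in the postsynaptic density. Of the 8 auxiliary subunit genes above the minimum level, 1 was at least 2-fold higher at day 18 (CACNG5, from 0.0818 to 1.06 FPKM) and 2 were lower (NETO1 and NETO2, which attach to kainate receptors), beside 10.6% and 28.2% of all coding records. After recentring 3 were higher (CACNG4, CACNG5 and CACNG7) and 0 lower, beside 19.3% and 12.1%. NETO2 went from 53.3 FPKM at day 0 to 25.3 at day 1, and then more slowly to 18.4 at day 18. The AMPA auxiliary subunits CACNG4, CACNG7 and CNIH2 were between 16.2 and 41.5 FPKM throughout. At day 18 they were at 41.5, 36.3 and 31.2 FPKM, against 45.6 for GRIA1, 19.9 for GRIA2, 0.936 for GRIA3 and 15.1 for GRIA4. The median difference of the list was 0.10 in log2(FPKM + 0.1).

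Of the 16 partner genes above the minimum level, 4 were at least 2-fold higher (CAMK2A, CAMK2B, DLGAP3 and LRRC7) and 2 lower (SYNPO and CAMK2D), with a median difference of 0.46. After recentring 8 were higher, with DLGAP1, IQSEC2, KALRN and ARC added, and 1 was lower (SYNPO), beside the same shares of coding records as above. CAMK2B, a subunit of the calcium-dependent kinase that acts on AMPA receptors, went from 0.0338 to 4.22 FPKM, and CAMK2A, the other neuronal form, from 0.577 to 2.88. CAMK2D, the form found in many tissues, differed by -1.32 in log2(FPKM + 0.1) and was still the highest of the 4 kinase genes at day 18. DLGAP4, which binds DLG proteins, differed by -0.03.

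Many of the 34 genes are long, which had no part in choosing them. With GRIN1 taken at its own locus, where it spans 29.6 kb, the records span a median of 195 kb of genome, against 24.0 kb for 19295 coding records on primary chromosomes. The range is from 9.29 kb for GRIN3B to 2172 kb for DLG2, and 22 of the 34 span over 100 kb, against 16.7% of those records. With the record on TOR4A in its place, the median was 228 kb and 23 were over 100 kb. The exon bases differed less, with medians of 6262 and 3090.

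Some lists of cell type markers also moved over these days, and their part in the changes of the 34 genes was not tested. Among all coding records, 10.6% were at least 2-fold higher at day 18 than at day 0 and 28.2% at least 2-fold lower. Neuron markers (8 genes, among them STMN2, DCX and SYP) summed to 344 FPKM at day 0, 272 at day 1 and 1279.5 at day 18. Of the 8, 7 were at least 2-fold higher at day 18 than at day 0. The exception, GAP43, was at 193 FPKM at day 0, 55.7 at day 1 and 173 at day 18. At day 1, MAP2, STMN2, DCX, ELAVL4 and SYP were higher than at day 0, and SNAP25 and SYT1 were lower. Progenitor markers summed to 3694 and 1799.8 FPKM on day 0 and day 18, of which VIM alone was 2948 and 1493. Of the 7, 2 were at least 2-fold lower and PAX6 was higher, which is near the shares of all coding records. After recentring 1 was lower and 1 higher. The 2 lower without recentring were NES, from 513 to 180 FPKM, and PROM1, from 38.8 to 5.06, and after it only PROM1. At day 18 the others were at 66.1 (SOX2), 10.4 (PAX6), 1493 (VIM), 10.1 (HES1) and 35.2 FPKM (MSI1). All 5 proliferation markers were lower (392 to 68.3 FPKM summed). Mesenchymal markers went from 656 to 56.7 FPKM with 4 of 5 lower and COL1A1 listed at 0 on every day, and the oligodendrocyte list stayed between 30.9 and 37.6. Astrocyte markers went from 87.5 to 19.5 FPKM, most of which was GJA1 (78.3 at day 0 and 15.0 at day 18). S100B was at 8.68 FPKM at day 0, 0.593 at day 2 and 4.25 at day 18, and GFAP, AQP4 and ALDH1L1 were under 0.4 on every day.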

How the data were processed

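Groups were taken from the day in the sample labels (20 samples, 7 days). According to its methods, the authors used TopHat2 (hg19) for alignment of paired reads, Cufflinks for assembly and Cuffdiff2 for expression, at default options (versions not given in the sources used here). The default library type is unstranded. The deposited FPKM values hold 1 value per record and day, pooled over that day's cultures, and 0 columns hold single samples. The planned limma test was therefore not run, and the depth is unknown. The deposited comparison table also gives coordinates in other columns, which were used, and fold changes, test statistics, p-values and q-values of adjacent days, which were not.

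Differences were taken in log2(FPKM + 0.1) between days, over 14107 of 20237 coding records with a mean of at least 0.1 FPKM. At least 2-fold means an absolute difference of at least 1. All values of a gene were given where its mean was at least 1 FPKM or its difference between day 18 and day 0 at least 1, and otherwise its highest day. Genes outside the list of 34 were named from fixed lists only. Exon bases were set against GENCODE v44 lifted to GRCh37. The counting was tested on simulated data. Members, lists and rules were chosen with earlier results of these data known. Alternatives were a pseudocount of 1 or 0.01 FPKM, a minimum mean of 1 FPKM or none, a fold of 1.5, recentring, and other records for merged symbols. Python 3.11.15, pandas 2.3.3 and numpy 2.4.6 were used.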

Additional observations from a re-analysis of the deposited data

How the results depend on the processing

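The 20 genes at least 2-fold apart between day 0 and day 18 became 10 with a pseudocount of 1 FPKM and 9 with a minimum mean of 1 FPKM. The median difference of 1.15 became 0.45 with the pseudocount of 1 and 1.75 after recentring. With a pseudocount of 1 the counts of the steps ending on days 1, 11 and 18 were 1, 2 and 1. With a pseudocount of 0.01 those of the steps ending on days 1, 2, 4 and 5 were 8, 1, 1 and 2. At a fold of 1.5 the 6 steps gave 7, 1, 3, 5, 12 and 13 in order. Recentring gave 1 in the step ending on day 5 and 9 in the step ending on day 18, and a minimum mean of 1 FPKM gave 4 and 2 in the steps ending on days 11 and 18. The cause of these shifts was not tested, except that a larger pseudocount by construction shrinks the differences of low genes and a higher minimum leaves fewer genes. All coding records were not counted with a pseudocount of 1 or 0.01 FPKM or at a fold of 1.5. For single steps they were not counted with recentring or the higher minimum either. The counts under those settings therefore describe the listed genes alone, with no background to set them against.

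The GRIN1 difference of -1.25 became 0.24 when the 2 records with its symbol were summed and 2.89 with the record in its own exons, also when HOMER3 was left out too. The latter choices were made after seeing the data. HOMER1 made up 59.8% at day 0 and 57.9% at day 18 of the HOMER sum without the merged HOMER3 record, against 5.26% and 6.15% with it. The other differences of single genes kept their sign where they were at least 2-fold. No paired analysis was possible because each day has 1 pooled column, and leaving out each replicate in turn was not run for the same reason.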
